A study of Mus musculus with 8 samples.

Results

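The genes described here are 10 immediate early genes of mouse nephron progenitor cells, namely Fos, Fosb, Jun, Junb, Jund, Egr1, Atf3, Ier2, Dusp1 and Ier3. They were taken by symbol from the 20254 genes of the deposited table, and all 10 were present and passed the filter on low values. They were chosen by their levels in these libraries, namely the difference between the groups and the covariation between libraries, so these are given as descriptions without a test. The libraries come from kidneys at embryonic day 17.5 of mice that carry Six2EGFPcre, a transgene joining GFP to Cre recombinase under the progenitor gene Six2. Kidneys were digested with collagenase, passed through a needle and sorted for GFP. The 4 control libraries are labelled VHLNP+/- (heterozygous for the deleted Vhl allele) and the 4 mutant libraries VHLNP-/- (homozygous), so every library carries Cre and at least 1 deleted allele. The labels do not say how many embryos went into a library or that libraries came from separate litters, so the p-values below measure the spread between these samples.

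Immediate early genes are transcribed within minutes of a growth factor, stress or mechanical signal, without new protein synthesis, and their messages decay quickly. Mitogen-activated protein (MAP) kinases act on serum response factor, its ternary complex partners and CREB at their promoters. The products are largely transcription factors (Fos and Jun proteins pair to form AP-1) and feedback inhibitors such as Dusp1. Enzymatic dissociation and sorting of tissue are known to induce them. Ier3, also called IEX-1, is an immediate early gene whose product acts in cell survival and in signalling by MAP kinases and NF-kB.

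The sequences just before the start sites show which promoters hold either of 2 short motifs, and were taken from RefSeq (GRCm38.p6, the mm10 assembly). A window was found for 8 of the 10 genes, and Egr1 and Ier2 had none. Each is printed 5′ to 3′ along the gene, up to 250 bases before the RefSeq start and without bases that GENCODE M21 places in an exon. Capitals mark ACGTG and TGACG on either strand. ACGTG is a form of the core of the hypoxia response element, and its other form, GCGTG, was neither searched nor marked. TGACG is the core of the cyclic AMP response element bound by CREB and ATF proteins. The windows lie at chr17:35821463-35821683 (plus strand), chr12:85473640-85473889 (plus strand), chr7:19310052-19310295 (minus strand), chr8:84978749-84978998 (minus strand), chr17:26508520-26508722 (minus strand) and chr4:95052223-95052472 (minus strand).
Ier3: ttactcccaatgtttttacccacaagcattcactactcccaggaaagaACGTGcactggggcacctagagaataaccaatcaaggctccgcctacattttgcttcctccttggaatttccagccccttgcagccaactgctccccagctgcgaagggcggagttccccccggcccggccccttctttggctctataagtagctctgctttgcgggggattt
Fos: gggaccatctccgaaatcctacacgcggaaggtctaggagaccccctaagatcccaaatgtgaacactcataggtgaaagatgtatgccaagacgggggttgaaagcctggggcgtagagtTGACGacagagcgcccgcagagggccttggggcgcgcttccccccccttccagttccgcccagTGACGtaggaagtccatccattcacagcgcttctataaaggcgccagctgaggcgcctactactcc
Fosb: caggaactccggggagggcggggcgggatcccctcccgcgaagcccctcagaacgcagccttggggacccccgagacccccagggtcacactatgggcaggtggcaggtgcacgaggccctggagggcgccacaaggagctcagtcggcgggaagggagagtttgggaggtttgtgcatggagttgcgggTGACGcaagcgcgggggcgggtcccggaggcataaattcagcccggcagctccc
Junb: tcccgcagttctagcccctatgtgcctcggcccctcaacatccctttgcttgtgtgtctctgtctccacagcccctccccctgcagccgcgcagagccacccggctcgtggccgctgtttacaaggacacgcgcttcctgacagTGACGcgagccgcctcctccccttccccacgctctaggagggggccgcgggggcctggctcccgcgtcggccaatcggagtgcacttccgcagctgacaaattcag
Dusp1: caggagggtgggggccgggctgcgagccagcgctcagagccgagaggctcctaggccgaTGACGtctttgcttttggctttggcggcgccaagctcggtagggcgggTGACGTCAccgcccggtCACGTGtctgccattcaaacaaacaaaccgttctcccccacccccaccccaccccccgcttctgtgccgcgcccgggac
Jun: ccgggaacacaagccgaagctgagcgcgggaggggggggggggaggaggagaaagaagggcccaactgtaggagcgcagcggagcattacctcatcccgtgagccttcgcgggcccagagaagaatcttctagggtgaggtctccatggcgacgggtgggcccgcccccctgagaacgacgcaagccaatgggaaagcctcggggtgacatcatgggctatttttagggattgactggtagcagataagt

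TGACG was found in the 250 bases before the start of 5 of the 8 genes (Fos, Fosb, Junb, Dusp1 and Atf3), compared with 17.8% of 32851 windows of that length over all genes. Its match in Atf3 lies in annotated exon sequence and is not printed. Jun had neither motif. Ier3, like Jun and Jund, had no TGACG, and it had 1 ACGTG, which begins 202 bases before its RefSeq start. ACGTG was also found in Dusp1, as part of CACGTG, and in Jund, and in 16.6% of all windows. The Jund window belongs to a RefSeq start upstream of the GENCODE gene and is not printed. The full palindrome TGACGTCA, which contains TGACG on both strands, was found in Dusp1 alone of the 8 and in 1.55% of all windows. A kappaB site was found in Ier3, Fos and Fosb and in 3.90% of all windows. Neither TGANTCA, the AP-1 site, nor a CArG box, the site of serum response factor, was found in these windows of the 8 genes (6.75% and 1.47% of all windows). These are matches of letters only.

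The libraries held between 37.3 M and 46.5 M (mega) reads assigned to genes, of which these 10 genes took between 0.109% and 0.276%. Vhl averaged 1225 ± 107 normalised reads over the controls and 318 ± 23.2 over the mutants (limma adjusted p = 4.22e-08; SD, n = 4 each). Normalised reads are reads divided by the size factor of the library. Over all genes, 1297 of 15381 tested (8.43%) were called at a limma adjusted p under 0.05, 831 higher and 466 lower in mutants. Without control 4 or mutant 4 the number was 816 or 774. With the deposited values as they are it was 538 higher and 160 lower, and by limma-voom 747 and 798. The summed level of 12 progenitor markers, of which 11 were tested, lay between 126374 and 142964 normalised reads in the 8 libraries. Control 3 and mutant 2 had the lowest sums of maturing tubule, ureteric bud, stromal, podocyte, endothelial and leukocyte markers in their groups. This did not hold for erythroid markers. The same libraries had the highest progenitor sums in their groups (142964 and 137246). Control 2 and mutant 2 had almost no Xist reads (8.84 and 51.9).

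Ier3 alone among the 10 genes separated the groups, while the other 9 overlapped between them. By the same fit 1 of 10 members was called, beside 8.43% of all tested genes (5.40% higher and 3.03% lower), and the groups did not overlap for 1 of 10 members, beside 15.3% of all tested genes. Nothing is read from these counts, since this contrast was known when the genes were picked. The median log2 difference of the 9 other genes (mutants minus controls, as log2 of normalised reads + 1) was 0.38, and that of all tested genes was -0.01.

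**Figure D1:**
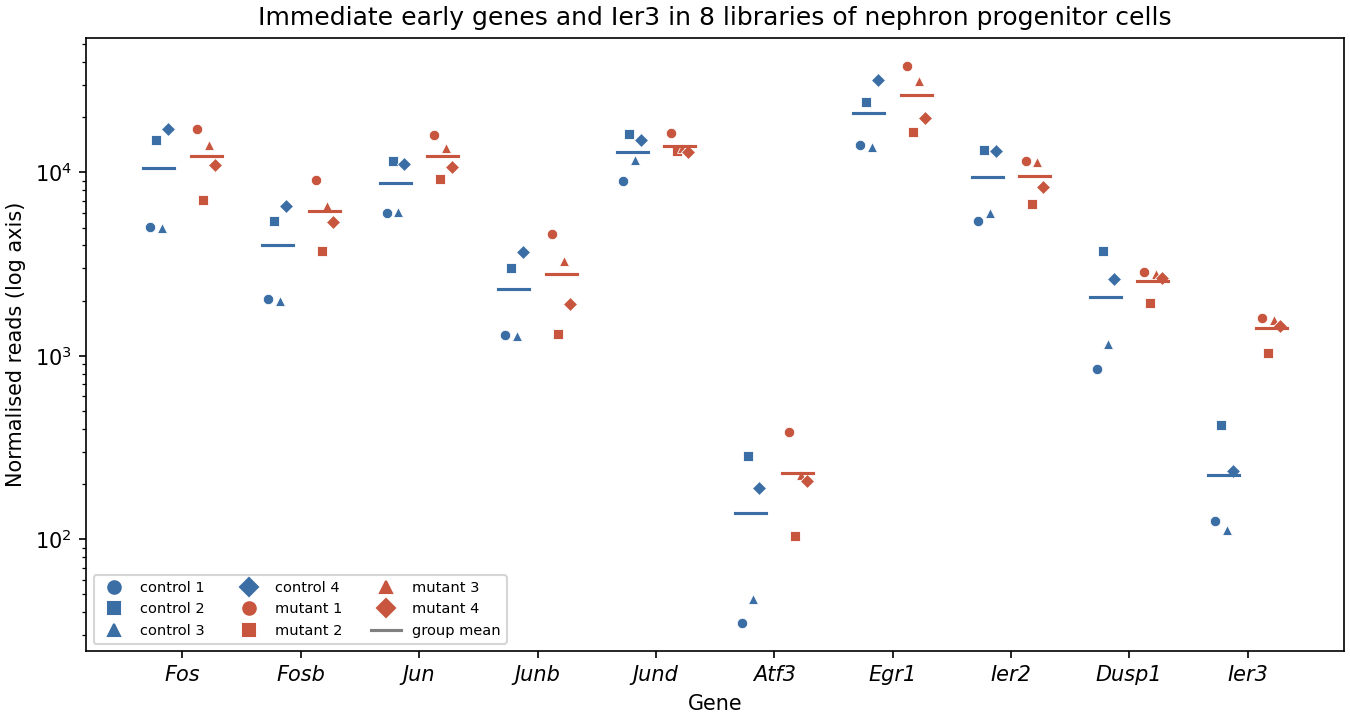
Normalised reads (log axis) of the 10 genes in the 4 control (blue) and 4 mutant (red) libraries, with 1 symbol shape per library number and a bar at each group mean. The groups overlap for 9 genes, and for Ier3 the mutant libraries lie between 1038 and 1606 and the control libraries between 112 and 417.

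Fos encodes the founding partner of Jun proteins in AP-1. Its normalised reads were 5043, 14929, 4979 and 17261 in controls 1 to 4 and 17123, 7027, 14126 and 10896 in mutants 1 to 4. Controls 1 and 3 were low, controls 2 and 4 high, and mutant 2 was the lowest mutant. The highest control was 3.47 times the lowest, and the group means were 10553 ± 6470 and 12293 ± 4335 (SD, n = 4 each), a log2 difference of 0.38 (SE 0.51). Fosb, a paralog that pairs with the same Jun proteins, was at 2037, 5409.6, 1995 and 6525 in controls and 9074, 3736, 6552 and 5349 in mutants. It had the same low and high libraries as Fos, with a log2 difference of 0.76 (SE 0.48), and the lowest mutant lay below controls 2 and 4.

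Of the Jun family, which binds DNA as dimers among themselves or with Fos proteins, Jun and Junb varied between libraries as Fos did, and Jund varied less. Controls 1 to 4 had 6001, 11586, 6043 and 11140.2 normalised reads of Jun and mutants 1 to 4 had 15984, 9183, 13551 and 10638. Its group means were 8693 ± 3089 and 12339 ± 3034 (SD, n = 4 each), a log2 difference of 0.54 (SE 0.29), with overlap between the groups. Junb, which can act against Jun, was at 1295, 3019, 1274 and 3676 in controls and 4621, 1316, 3304 and 1918 in mutants. Mutant 2 lay at the level of controls 1 and 3, and the log2 difference was 0.27 (SE 0.52). Jund, the Jun gene that is expressed steadily and responds least to stimuli, was at 9019, 16128, 11681 and 15031 in controls and 16459, 13074, 13585 and 12844 in mutants. Mutants spanned 1.28 times from lowest to highest and controls 1.79 times, and the log2 difference was 0.14 (SE 0.18).

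Egr1, a zinc finger transcription factor induced by growth factors and shear, was the member with the most reads. Its normalised reads were 14181, 24033, 13751 and 32018 in controls and 38176, 16627, 31297 and 19666 in mutants, a log2 difference of 0.35 (SE 0.38). Controls 1 and 3 and mutant 2 were again the low libraries, and mutant 4 lay below control 2. Ier2, a nuclear protein of the serum response, was at 5403, 13305, 5977 and 13004 in controls and 11589.9, 6693, 11420.3 and 8348 in mutants. Its group means were the closest of the 10 genes, at 9422 ± 4318 and 9513 ± 2399 (SD, n = 4 each), a log2 difference of 0.10 (SE 0.37).

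Atf3, a stress-induced member of the CREB and ATF family, had the fewest reads and the widest spread. Its normalised reads were 34.9, 286, 47.0 and 190.2 in controls and 383, 104, 223 and 207 in mutants. The highest control was 8.18 times the lowest, and both groups held low and high libraries, with a log2 difference of 1.08 (SE 0.76). Dusp1, the phosphatase that switches off MAP kinases after their activation, was at 852, 3721, 1162 and 2616 in controls and 2870.0, 1937, 2804.5 and 2665 in mutants. All 4 mutant libraries lay within the range of the controls, and the log2 difference was 0.53 (SE 0.47).

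Ier3 was higher in every mutant library than in every control library. Its level was 125, 417, 112 and 236 normalised reads in controls 1 to 4 and 1606, 1038, 1572 and 1460.5 in mutants 1 to 4. Control 2 was the highest control and mutant 2 the lowest mutant, and the groups did not overlap. Group means were 223 ± 141 and 1419 ± 262 (SD, n = 4 each), a 7.22-fold difference in the fit (log2 difference 2.85, SE 0.43), which ranked 32 from the top among the 15381 tested genes. In the authors' deposited table the log2 fold change of Ier3 was 2.67 (standard error 0.46), which comes from the same 8 libraries and is given as a description. The difference stayed between 2.59 and 3.22 when any 1 library was left out, and was 2.73 without control 3 and mutant 2. Within controls the highest Ier3 level was 3.74 times the lowest, and within mutants 1.55 times.

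Ier3 lies on chromosome 17 from 35821684 to 35822923 (mm10, plus strand, ENSMUSG00000003541), and no other GENCODE gene overlaps it. Within 100 kb on either side 10 other genes were tested, and all of them lie after the end of Ier3. By limma 0 of them rose and 2 fell, beside 5.40% called higher and 3.03% lower over all tested genes. Flot1, a membrane raft protein gene that starts 307 bases after the end of Ier3, averaged 931 ± 55.9 normalised reads over the controls and 900.0 ± 67.8 over the mutants (limma adjusted p = 0.746; SD, n = 4 each). Tubb5, a beta tubulin gene 10998 bases away, averaged 85586 ± 8585 and 81963 ± 8009 (limma adjusted p = 0.74; SD, n = 4 each). The fallen neighbours, named after their values were seen, were 2310061I04Rik (fell by 0.47 on the log2 scale, adjusted p = 0.00394) and Mrps18b (fell by 0.35, adjusted p = 0.0126).

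Per length of annotated exons, the order of levels in controls ran from Jund (7773 ± 1942 normalised reads per kb) through Ier2 (6191 ± 2837), Egr1 (4682 ± 1951), Fos (4487 ± 2751) and Jun (2726 ± 969) to Junb (1006 ± 531). Below them came Fosb (639 ± 373), Dusp1 (631 ± 403), Ier3 (197 ± 125) and Atf3 (64.7 ± 55.9; SD, n = 4 for each gene). Neighbours in this order lay within the smaller of their SDs from Jund to Fos and from Junb to Dusp1. In mutants Ier3 stood at 1255 ± 232 per kb (SD, n = 4), beside Junb at 1212 ± 642 and above Fosb at 989.6 ± 360.3, and the other genes kept their order. The use of strand in counting, not given in the sources used here, bears on some members. Jun, Junb, Jund, Atf3 and Dusp1 overlap a gene annotated on the other strand (Junos, Prdx2, Gm11175, Gm24748 and Ergic1 among them), so their levels are uncertain to that extent. Dusp1 also overlaps AC122252.4 and AC122252.1 on its own strand, so its level may be uncertain however strand was used.

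The 10 genes deviated together from library to library within a group. The deviation is log2(normalised reads + 1) minus the mean of the library's own group. In controls 1 and 3 all 10 genes lay below their group mean and in controls 2 and 4 all 10 lay above it. In mutant 1 all 10 lay above and in mutant 2 all 10 below, while mutant 3 had 9 above and mutant 4 had 3 above. The mean deviation of the 9 genes other than Ier3 was -0.76, 0.70, -0.62 and 0.69 in controls 1 to 4 and 0.52, -0.58, 0.21 and -0.15 in mutants 1 to 4. The controls thus fell into a low pair (1 and 3) and a high pair (2 and 4).

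**Figure D2:**
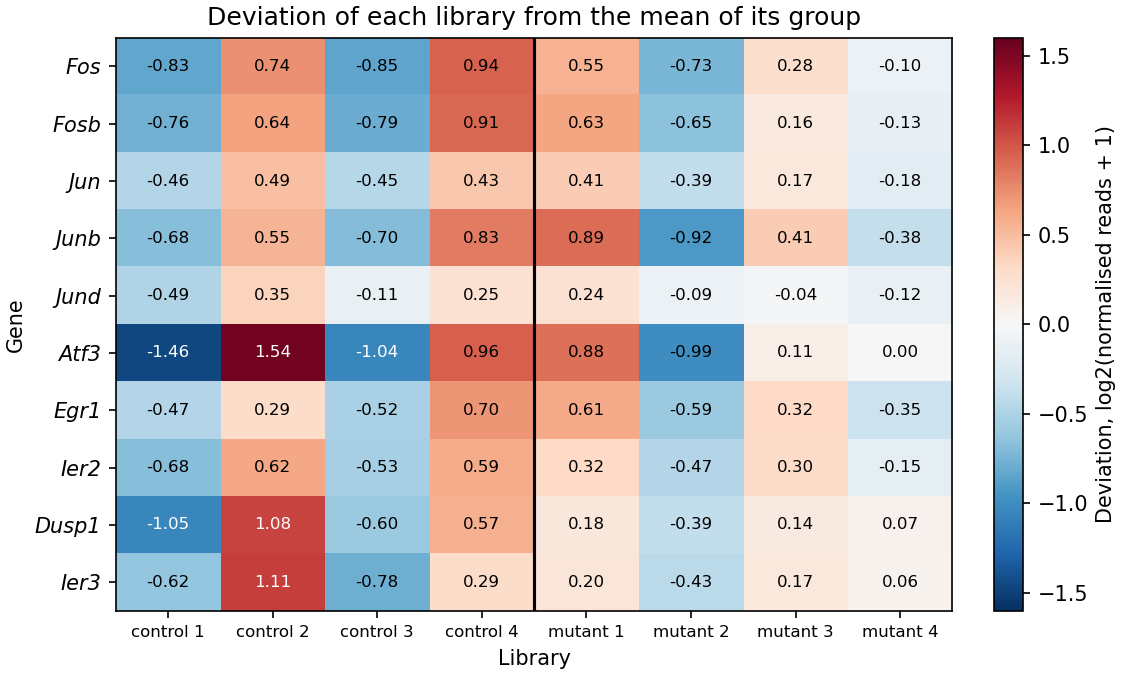
Deviation of each library from the mean of its own group, on the scale of log2(normalised reads + 1), for the 10 genes (rows) in the 8 libraries (columns; the black line divides controls from mutants). Controls 1 and 3 and mutant 2 are below the mean (blue) and controls 2 and 4 and mutant 1 above it (red) in all 10 rows.

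Among the 36 pairs of the 9 genes, Pearson's r of the deviations over the 8 libraries lay between 0.745 and 0.996 with a median of 0.942. The points of each pair share their libraries, and the values are descriptions. Against the mean of the other 8 genes, Jun (r = 0.993, Spearman's rho = 1), Fos (r = 0.990, rho = 0.95) and Ier2 (r = 0.989, rho = 1) followed most closely. Jund (r = 0.894, rho = 0.93) and Dusp1 (r = 0.906, rho = 0.98) followed least. Leaving out the 2 libraries farthest from the median gave r between 0.875 and 0.994 for the 9 genes. Their sizes of swing differed: per unit of the others' mean deviation Atf3 moved by 1.90, Fos by 1.22, Junb by 1.17 and Fosb by 1.13. Egr1 moved by 0.79, Jun by 0.65 and Jund by 0.37. The within-group SD of the log2 level was 1.17 for Atf3, 0.80 for Junb, 0.79 for Fos and 0.29 for Jund, and the median over all tested genes was 0.13.

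Ier3 took part in this covariation as well as differing between the groups. Its deviations had an r of 0.895 (rho = 0.98) with the mean of the 9 other genes, and 0.905 without the 2 libraries farthest from the median. Its r was highest with Dusp1 (0.953) and Atf3 (0.939) and lowest with Egr1 (0.717). In the library-by-library comparison, log2 of Ier3 minus the mean log2 of the 9 genes was -4.18, -3.91, -4.48 and -4.72 in controls 1 to 4. In mutants 1 to 4 it was -2.25, -1.78, -1.97 and -1.72, so the groups did not overlap on this measure either. Controls 2 and 4 and mutant 3 had nearly the same mean for the 9 genes (12.62, 12.61 and 12.59), and Ier3 was at 417, 236 and 1572 normalised reads in them. Mutant 2 had the lowest mean of the mutants (11.80), below those of controls 2 and 4, and 1038 reads of Ier3.

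**Figure D3:**
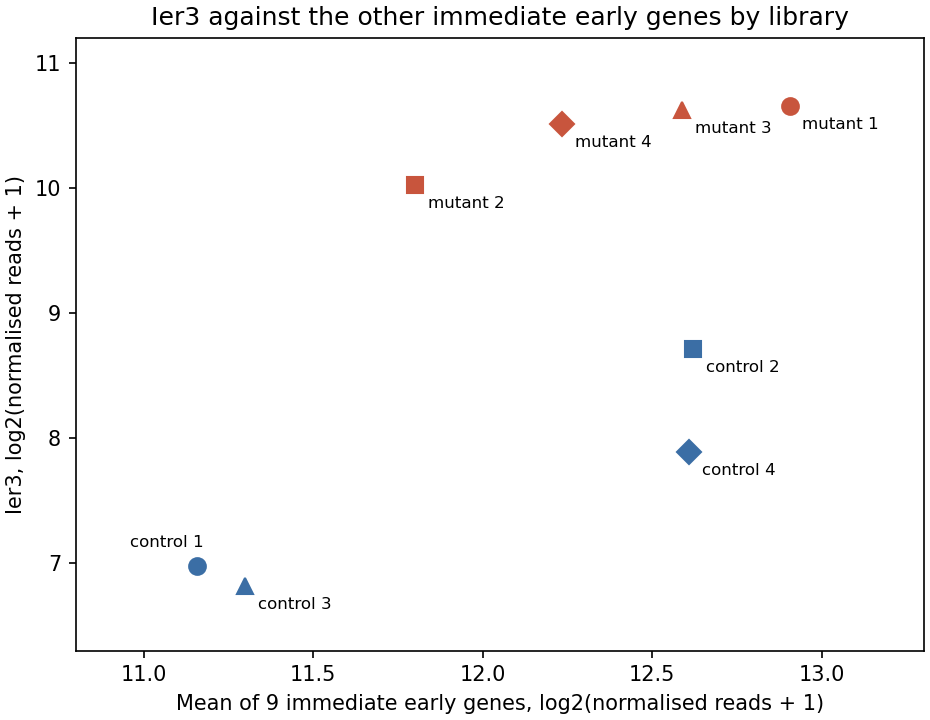
Ier3 (vertical axis) against the mean of the 9 other immediate early genes (horizontal axis), both as log2(normalised reads + 1), for each of the 4 control (blue) and 4 mutant (red) libraries. Within each group the libraries with a high mean of the 9 genes have more Ier3 than those with a low mean, and the mutants lie above the controls at the same mean.

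Several other early response genes outside the 10 had the same pattern between libraries. Of 12210 other genes with a mean of at least 100 normalised reads, 90 (0.74%) had an r of at least 0.9 with the mean deviation of the 9 genes over the 8 libraries. At the other end 56 had an r of -0.9 or lower, and the median r was -0.06. The 10 most alike were Irak2, Zfp36, Spry2, Cyr61, Csrnp1, Amotl2, Egr2, Klf4, Dusp5 and Uvrag, with r between 0.970 and 0.991. Irak2 encodes a kinase of interleukin-1 and Toll-like receptor signalling, and was at 132, 272, 134 and 262 normalised reads in controls. Zfp36, which encodes a protein that destabilises AU-rich messages, was at 1222, 4459, 1669.7 and 4852 there. Both thus had controls 1 and 3 low and controls 2 and 4 high. Cyr61, an adhesive matrix protein and target of YAP, ranged from 1674 to 5462 in controls and from 2605 to 8508 in mutants. The limma adjusted p between the groups was at least 0.338 for each of these 10 genes, and their groups overlapped.

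The 5 genes most like Ier3 in its deviations within groups were Gadd45a (r = 0.973), Rhob (0.971), Gadd45g (0.969), Dusp6 (0.965) and Ptrhd1 (0.964). Gadd45a and Gadd45g act in growth arrest and stress signalling, Rhob is a small GTPase that is itself induced early, and Dusp6 removes phosphate from ERK. Gadd45a was at 319, 665, 273 and 524 in controls, with control 2 the highest as for Ier3. Their limma adjusted p between the groups was 0.728, 0.405, 0.364, 0.889 and 0.158, in that order. Of the 12210 genes, 69 had an r of at least 0.9 with Ier3 and 34 had it with both Ier3 and the 9 genes.

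A list of 46 other primary response genes, chosen like all lists here with earlier results of these data known, gave 6 rises and 1 fall among 43 tested members, and 36 were not called (limma). Fosl1, Nr4a3 and Npas4 did not pass the filter. The share called is 7 of 43, beside 8.43% of all tested genes, and the list's median log2 difference was 0.32, beside -0.01. At an unadjusted p under 0.05 there were 12. Leaving out control 3, mutant 2, mutant 3 or mutant 4 left 4 calls each. With r available for 41 members, 21 (51.2%) reached an r of at least 0.9 with the 9 genes, beside 0.74% of the 12210 genes.

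Bhlhe40, a repressor of the basic helix-loop-helix family that responds to hypoxia, rose 4.90-fold. Its normalised reads were 444, 661, 492 and 641 in controls and 2790.4, 2449.9, 2889 and 2715 in mutants (limma adjusted p = 8e-07). Tnfaip3, a ubiquitin-editing inhibitor of NF-kB, rose 4.60-fold, from 147 ± 24.3 to 674 ± 46.3 (limma adjusted p = 4.55e-07; SD, n = 4 each). Both separated the groups widely, as Ier3 did, and both followed the 9 genes within groups (r = 0.948 and 0.909). Nfil3, a bZIP repressor, rose 1.67-fold (adjusted p = 0.00435), and Tiparp, an ADP-ribosyltransferase induced by the aryl hydrocarbon receptor, rose 1.27-fold (adjusted p = 0.0134). These 4 calls held in limma fits without any 1 library.

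Nfkbiz, an inducible co-regulator of NF-kB, was at 349, 1112, 474 and 834 in controls and 2277, 1382, 2236 and 1767 in mutants. It rose by 1.58 on the log2 scale (limma adjusted p = 0.0492), with an r of 0.957 with the 9 genes. That call held only without control 2 when 1 library was left out, and otherwise the adjusted p rose to as much as 0.152. Per1, a clock gene, rose 1.26-fold (adjusted p = 0.0391), and Myc fell by 0.45 (log2), with means of 4047 ± 517 and 2956 ± 345 (adjusted p = 0.0298; SD, n = 4 each). Per1 lost its call without control 3, control 4 or any 1 mutant (adjusted p up to 0.11). Myc lost its call without control 2, 3 or 4 or mutant 2, 3 or 4 (adjusted p up to 0.0882).

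Among other bZIP genes, 18 of 20 were tested, 0 rose and 2 fell (limma). The list is called AP-1 partners here, though not all of its genes are known to pair with Fos or Jun. Over all tested genes 5.40% were called higher and 3.03% lower. Maf fell by 0.76 (log2), with means of 1549 ± 89.9 and 922 ± 153 (adjusted p = 0.00116; SD, n = 4 each). That call held without any 1 library. Maff, a small Maf protein, was at 157, 635, 211 and 487 in controls and 1188, 817, 1008 and 1137 in mutants, without overlap, at a limma adjusted p of 0.0698. Fosl2, a Fos paralog, averaged 719 ± 173 and 1183 ± 247 (limma adjusted p = 0.0722; SD, n = 4 each), also without overlap. By limma-voom Maff and Fosl2 were both called higher (adjusted p = 0.0143 and 0.0487). In limma fits with 1 library left out, Maff was called only without control 2 and Fosl2 only without control 4. Fosl1, Fosl2 and Maff stand in both of these lists.

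Genes of the MAP kinase cascades and of serum response factor, which act upstream of the early genes, varied less between libraries as a list. Their median within-group SD was 0.08 on the log2 scale, that of the other primary response genes 0.37. Of 32 tested, 2 rose and 0 fell, beside 8.43% of all tested genes called. Of them 0 reached an r of 0.9 with the 9 genes, beside 0.74% of 12210 genes, and neither count is read further. Srf itself, which encodes serum response factor, came nearest at 0.857, with 3748, 5667, 4575 and 5278 normalised reads in controls and 5179, 4633, 4608 and 4594 in mutants. Its low and high controls were those of Fos. Map2k1, the kinase that activates ERK, rose 1.67-fold from 2894 ± 217 to 4822 ± 129 (limma adjusted p = 1.53e-05; SD, n = 4 each). Map3k1, a kinase upstream of JNK, rose 1.25-fold (adjusted p = 0.00493). Both calls held without any 1 library. Rps6ka4, which phosphorylates CREB and histone H3, had an adjusted p of 0.0502.

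Some inhibitors that ERK signalling induces varied between libraries as the early genes did. Of 17 MAP kinase phosphatases and Sprouty or Spred genes, Dusp2, Dusp4, Dusp5, Dusp6, Spry2 and Spry4 reached an r of at least 0.9. The limma adjusted p between the groups was at least 0.572 for each of these 6. Of the 12210 genes compared, 0.74% reached that r. Spry2 was at 1658, 2723, 1641 and 2722 in controls and 2797, 2082, 2676 and 2415 in mutants. In the test between the groups 1 of the 17 rose and 1 fell (limma), beside 8.43% of all tested genes called. Dusp16, a phosphatase of JNK and p38, rose 1.25-fold (adjusted p = 0.0402) and Dusp7 fell by 0.21 (adjusted p = 0.0495), with r of -0.48 and -0.47 with the 9 genes. Dusp16 kept its call only without control 3 or mutant 1 and Dusp7 only without mutant 2, with adjusted p up to 0.112 and 0.163 otherwise. Dusp3 and Spred1 had adjusted p of 0.328 and 0.307.

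Of 14 heat shock genes, which dissociation of tissue can also induce, Hspa1a and Hspa1b followed the 9 genes (r = 0.918 and 0.926) and the other 12 had r of at most 0.83. Hspa1a was at 457, 953, 395 and 769 in controls and 574, 296, 491 and 539 in mutants, with the same low libraries as Fos. Hspa1a and Hspa1b are near-identical copies, so reads between them are uncertain. Hsp90aa1, an inducible cytosolic chaperone, rose 1.26-fold by limma (adjusted p = 0.0319), and 0 of the 14 fell. The share called is 1 of 14, beside 8.43% of all tested genes. Hsp90aa1 lost its call without control 2, control 3, mutant 1, mutant 3 or mutant 4 (adjusted p up to 0.0953). Dnajb4, Bag3 and Hspd1 had adjusted p of 0.123, 0.0999 and 0.139.

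**Figure D4:**
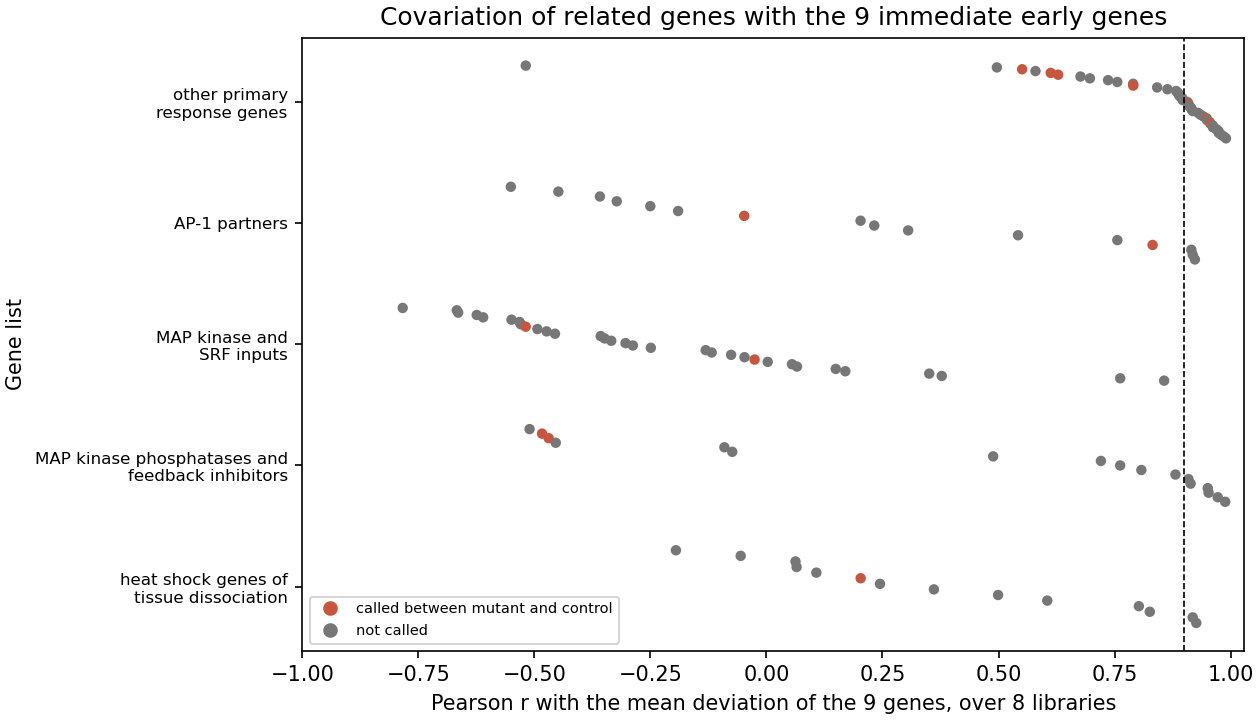
Pearson's r of each gene's deviations with the mean deviation of the 9 immediate early genes over 8 libraries (horizontal axis), by gene list (vertical axis; genes of a list are spread vertically in order of r). Red genes were called between mutant and control by limma. Of 41 primary response genes 21 lie at or beyond the dashed line at 0.9. Of 32 MAP kinase and serum response factor genes 0 do, and of 12210 genes compared 0.74%.

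Markers of other cells, depth and ribosomal RNA were set beside the deviations. The list mean deviations of 8 maturing tubule markers were 0.38, 0.59, -1.55 and 0.57 in controls 1 to 4 and 0.78, -0.68, 0.22 and -0.32 in mutants 1 to 4. They had the sign of those of the 9 early genes in 7 libraries and the other sign in control 1. The summed tubule level was 7120.3 normalised reads in control 1, near 8777 and 8110.2 in controls 2 and 4, and 2422 in control 3 (mutants between 4176 and 10243). The r of a list's mean deviation with that of the 9 genes over the 8 libraries was 0.70 for tubule, 0.67 for podocyte, 0.62 for endothelial, 0.52 for ureteric bud and 0.50 for leukocyte markers. It was 0.18 for erythroid markers, of which only 1 was tested, 0.17 for stromal and -0.13 for progenitor markers. The 9 podocyte markers deviated by 0.03, 0.94, -0.81 and -0.16 in controls and 0.63, -0.42, 0.42 and -0.63 in mutants. The 11 endothelial markers deviated by 0.18, 0.48, -0.82 and 0.15 in controls and 0.32, -0.15, -0.12 and -0.04 in mutants. Their signs matched those of the 9 genes in 6 of 8 libraries for each list, with control 1 among the exceptions. Podocyte sums were between 10611 and 19824 in controls and between 8816 and 12846 in mutants, and endothelial sums between 1471 and 2867 and between 2073 and 2702. The 12 leukocyte markers, of which 11 were tested, had sums between 603 and 1155 in controls and between 674 and 1109 in mutants. For 10 stromal markers the sums were 33914 to 74863 and 29938 to 59808, with control 1 the highest. Ureteric bud sums were 1824 to 3787 and 2446 to 4135, and erythroid ones 75.6 to 130.4 and 63.1 to 129.8, and 0 listed markers found in the table were at 0 in every library. Rn45s, a ribosomal RNA gene, took 0.398%, 0.322%, 0.586% and 0.382% of reads in controls 1 to 4 and 0.755%, 0.555%, 0.341% and 0.340% in mutants. By limma 1 progenitor marker rose and 2 fell, 1 podocyte marker rose and 1 fell, and 1 endothelial marker rose. Of the other tested markers 0 were called, and of all tested genes 8.43%. The part of these measures in the covariation was not tested, and fewer expressing cells and less RNA per cell cannot be told apart in bulk libraries.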

How the data were processed

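Polyadenylated RNA of sorted nephron progenitor cells was sequenced in 4 control and 4 mutant libraries by the labels' protocols with a kit that keeps strand. The authors used STAR 2.5.3a and DESeq2 1.18.1 on mm10, per the submitters' processing notes, with read counter and annotation not given in the sources used here. Each library's deposited signal was taken as reads divided by size factors, which the column headers do not state. The values show a second division by the size factors, recycled down the genes, and rounding. Both were undone: whole reads rebuilt the deposited mean for 20254 of 20254 genes. The authors' deposited log2 fold changes and adjusted p-values served as an alternative. The deposited Wald score was not used.

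The 15381 genes that reached 10 normalised reads in 4 or more libraries were compared by limma 3.58.1 in R 4.3.3 on log2(value + 1), with trended, robust variances, no covariate and Benjamini-Hochberg adjustment. The threshold was an adjusted p under 0.05. The fit was tested on simulated data. Precision is limited by 4 libraries a group. Named genes are the 10 members, Vhl, up to 4 genes per list with the smallest adjusted p, called list genes, the 10 genes most like the 9 members other than Ier3 and the 5 most like Ier3. The members and lists were chosen with earlier results of these data known. Other settings were pseudocounts, no filter, scaling, tools, weights, a replicate block and left-out libraries. Marker genes Ren1, Hba-a2, Hbb-bs and Hbb-bt were not analysed here, and the values of a few genes that the rule names are not reported here.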

Additional observations from a re-analysis of the deposited data

Results flagged for a closer look

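Among 96 groups of 4 libraries, from 48 named genes, 2 held a library apart from the others, and chance flags about 1 in 20. Rps6ka4, a kinase of CREB, was at 481.3 normalised reads in control 4 and between 549.9 and 561.4 in the other controls. Spred1, an inhibitor of Ras signalling, was at 5136 in control 2 and between 5631 and 5723 in the other controls. The 10 members had 0 such libraries.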

How the results depend on the processing

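Of 880 recomputed values 763 kept their side of the threshold or their size, 42 moved, 60 lost a call, 15 gained one and 0 reversed. A reversal could be counted only for Vhl, the named list genes and, among the members, Ier3. Changes of sign in the other members, counts of calls and values of r could not be counted as reversed. The 10 members' log2 differences moved by less than their SD within groups under all 19 alternatives. Leaving out 1 of 4 libraries cannot move a difference by that much, and the replicate block leaves it unchanged. Those alternatives could therefore only stay within the limit, and they are counted among the 763 values. The log2 differences of Fos, Junb, Jund, Egr1 and Ier2 changed sign in at least 1 alternative. Genes called numbered 774 to 1565 with 1 library left out, 698 with the deposited values, 2996 with library quality weights, 764 without control 3 and mutant 2, and 662 when control 2 was left out with mutant 2. The labels state no pairing of samples by replicate number. Same-numbered deviations correlated at 0.21, -0.14, -0.14 and 0.06, and 0 of 4 controls correlated best with its own number. These correlations cannot tell whether libraries shared a litter or a day. With the replicate block 766 genes were called, 4 of the primary response list, 0 of the phosphatase list and 0 of the heat shock list. With 1 library left out, calls numbered 4 to 8 in the primary response list, 2 to 3 among AP-1 partners, 2 to 3 among MAP kinase genes, 0 to 1 among phosphatases and 0 to 3 among heat shock genes. AP-1 partners had 4 calls by limma-voom and 4 in the authors' deposited table. The MAP kinase list had 4 with quality weights. Heat shock genes had 2 in the authors' deposited table, 3 with quality weights and 0 with the deposited values or without either pair of libraries. Phosphatases had 1 with no filter or without control 3 and mutant 2, and 0 with the deposited values or without control 2 and mutant 2. The r with the other members was 0.966 for Fos and 0.922 for Jun with the deposited values, and 0.986 for Jund without control 3 and mutant 2, which was added after seeing the data. The edgeR test that had been listed as an alternative was not run, since the deposited values are not counts, and limma-voom was run on the rebuilt reads. Low levels such as that of Atf3 carry more counting error.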
